A study of Homo sapiens with 2 samples.

Results

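Wnt proteins are secreted signals, and this account covers the genes of 8 Wnt ligands, WNT3, WNT4, WNT5A, WNT5B, WNT7A, WNT7B, WNT10A and WNT11, with PORCN and WLS, which serve Wnt secretion. The members were all probe sets of the array annotated to exactly 1 of these symbols. The rule found 17 of the 54675 probe sets, 14 of Wnt ligands and 3 of WLS. They covered 8 of the 10 genes. The 3 probe sets that list WNT3 also list a second symbol and were not used, and PORCN is not analysed here, since the annotation used pairs no probe set with it.

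A Wnt protein is made in the endoplasmic reticulum, where the acyltransferase Porcupine, the product of PORCN, attaches a fatty acid to it. The lipid-bearing Wnt binds the multispan carrier Wntless, the product of WLS, which takes it through the Golgi to the cell surface. The retromer complex and a sorting nexin then return empty Wntless to the Golgi. Outside the cell a Wnt binds Frizzled receptors and co-receptors, and in the canonical branch the signal stabilises beta-catenin, which is encoded by CTNNB1 and acts with TCF/LEF factors on target genes.

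The cells were of the established line HCC15, from a human lung cancer labelled as squamous, and each group was 1 culture on 1 biotin-labelled array. One culture received a control siRNA, whose target the labels do not state and whose sample title carries the word Tax. The other received an siRNA against CTNNB1. Both grew in RPMI medium with 5% fetal bovine serum, and the labels give 48 h between transfection and collection. By its title the series looked for Wnt targets in non-small-cell lung cancer with CTNNB1 mutations, and the question here is which levels of Wnt ligand and secretion transcripts the arrays read with and without CTNNB1 siRNA. With no replicate there is no test and no p-value, and each difference compares these 2 arrays only.

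Signals are the deposited linear intensities. Readings below a signal of 13.8, the 25th percentile over both arrays, were held at that floor for ratios, and a probe set entered the comparison when its signals averaged at least 49.1, the median over both arrays. Neither limit is a detection call. A difference of at least 2-fold was the fixed rule for a call. The spread within a gene between its entering probe sets, a pooled SD of 0.42 in log2 ratio over 5791 genes, serves as the error, and it does not cover variation between cultures. Intensities of different probe sets do not measure relative amounts of RNA.

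The targeted transcript read lower in the culture given CTNNB1 siRNA. The brightest CTNNB1 probe set (201533_at) read 1224 with control siRNA and 339 with CTNNB1 siRNA. The other CTNNB1 probe sets read 89.8 and 45.8 (1554411_at) and 130 and 118 (223679_at). The feedback targets AXIN2 and NKD1 were 3.31-fold and 8.42-fold lower by their brightest probe sets. Only the brightest AXIN2 probe set entered. Of its dim ones, 224176_s_at and 222695_s_at also read lower, and 224498_x_at read higher (20.0 and 35.7). The median log2 ratio over all 12531 entering genes was 0.15, with quartiles of -0.15 and 0.38. The epithelial markers EPCAM, CDH1, KRT8 and KRT18 all entered. Of 10 squamous markers 3 entered, SFN, S100A2 and SOX2, while KRT5, KRT14, DSG3, DSC3 and PKP1 stayed under the filter and TP63 and KRT6A were not analysed here. Of 4 adenocarcinoma or alveolar markers 3 entered, NAPSA (56.2 and 65.6), SFTPB (165 and 172) and SFTPC (107 and 191), and NKX2-1 did not. The other 4 SFTPC probe sets read 13.7 or less on both arrays. Of the fibroblast markers COL1A2 and DCN entered, with signals from 58.1 to 86.6, and of the leukocyte markers CD14 entered, with 67.1 and 80.3.

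WLS was the member gene with a signal above the filter, in all 3 of its probe sets. The upstream sequence of WLS is shown because WLS is the one member whose level could be compared between the arrays. The sequence is the 250 bases before the most upstream WLS start of the RefSeq table (GRCh38.p14, chr1:68232547-68232796, minus strand, written 5′ to 3′), all in lower case because no searched motif lies in it.

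WLS: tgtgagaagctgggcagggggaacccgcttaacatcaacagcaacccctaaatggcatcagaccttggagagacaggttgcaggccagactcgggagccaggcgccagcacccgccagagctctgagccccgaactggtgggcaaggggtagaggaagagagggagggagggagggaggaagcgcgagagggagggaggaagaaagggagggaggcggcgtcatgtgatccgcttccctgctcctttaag

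The window was searched on both strands for the 4 forms of the TCF/LEF core, CTTTG followed by AA, AT, TA or TT. None of them lies in this window or in that of the second WLS start. The table held 12 such windows for 8 of the genes, those of WNT3, WNT4, WNT5A, WNT5B, WNT7A, WNT10A, PORCN and WLS, and 0 of the 12 held a form. Over all 35116 windows of the same length, 12% held at least 1 form. The WLS window shown has a GC content of 62%, against a median of 58% over all windows. The WNT4 window has 86.8%.

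All 3 WLS probe sets read lower with CTNNB1 siRNA, each by less than 2-fold. In a bulk sample, fewer cells with a transcript and less of it per cell cannot be told apart. The brightest (221958_s_at) read 905 on the control array and 765 on the other, a remainder of 84.5%. Probe set 228949_at read 644 and 394, which is 61.2% of the control. Probe set 228950_s_at read 403 and 389, 96.6% of the control. The CTNNB1 siRNA array was thus the lower one each time, by amounts that differed widely between the probe sets.

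On the log2 scale the WLS ratios were -0.24, -0.71 and -0.05 in the same order, with an SD of 0.34 between them. As deposited, the difference of the brightest probe set was smaller than the probe set SD of 0.42, and that of 228949_at was larger. The pooled SD was 0.29 between probe sets of a gene with mean signals of at least 209, as the WLS probe sets have. The same held against that SD. Relative to the median of all entering genes, the gene-level WLS ratio was -0.39, in size between these SDs. After quantile normalization and after loess it was -0.49, larger in size than both SDs, which are those of the deposited values. With scaling to a common median it was -0.11, smaller than both. The sign of 228950_s_at was not stable, since its log2 ratio ran from -0.25 to 0.09 over the scalings tried. The signs of the other WLS probe sets held in all 5 scalings.

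Among all 27151 entering probe sets, 21.3% had a log2 ratio at or below that of 221958_s_at. The share was 5.72% for 228949_at and 33.6% for 228950_s_at. The 3 WLS values therefore lay in the lower part of the distribution and inside the 2-fold limits. By the fixed rule 0 of the 3 WLS probe sets were called in either direction. Over all entering probe sets the lower calls made up 2.42% and the higher calls 3.48%. Over entering genes these shares were 2.38% and 2.29%, and the 1 member gene that entered, WLS, was not among the calls.

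**Figure D1:**
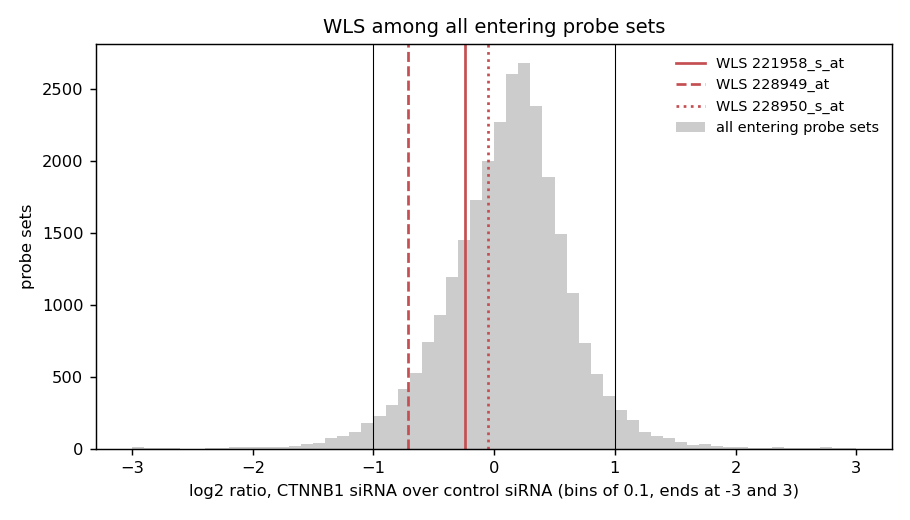
Histogram of log2 ratios (CTNNB1 siRNA over control siRNA, horizontal axis) of all 27151 entering probe sets, with the number of probe sets in bins of 0.1 on the vertical axis. Red lines mark the 3 WLS probe sets at -0.24, -0.71 and -0.05, all below the median of the distribution, 0.14, and inside the 2-fold limits drawn as thin black lines.

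The pair 228949_at and 228950_s_at was designed from the same sequence accession and still differed by 0.66 in log2 ratio. On this array 502 pairs of entering probe sets share a gene and an accession, with a median gap of 0.31. Of these pairs, 20.3% were at least as far apart as the WLS pair. How much of the gap comes from transcript forms and how much from probe error was not tested.

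None of the 14 Wnt ligand probe sets passed the signal filter. Their readings ran from 2.2 to 48.2 on the control array, with a median of 6.1. With CTNNB1 siRNA they ran from 2.3 to 30.8, with a median of 6.6. Both readings were under the floor for 9 of the 14, or 64.3%, against 18.2% of all probe sets on the array. Readings were lower with CTNNB1 siRNA for 7 ligand probe sets and higher for the other 7. The arrays thus gave little signal for these ligands in either culture, and the readings had no common direction.

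**Figure D2:**
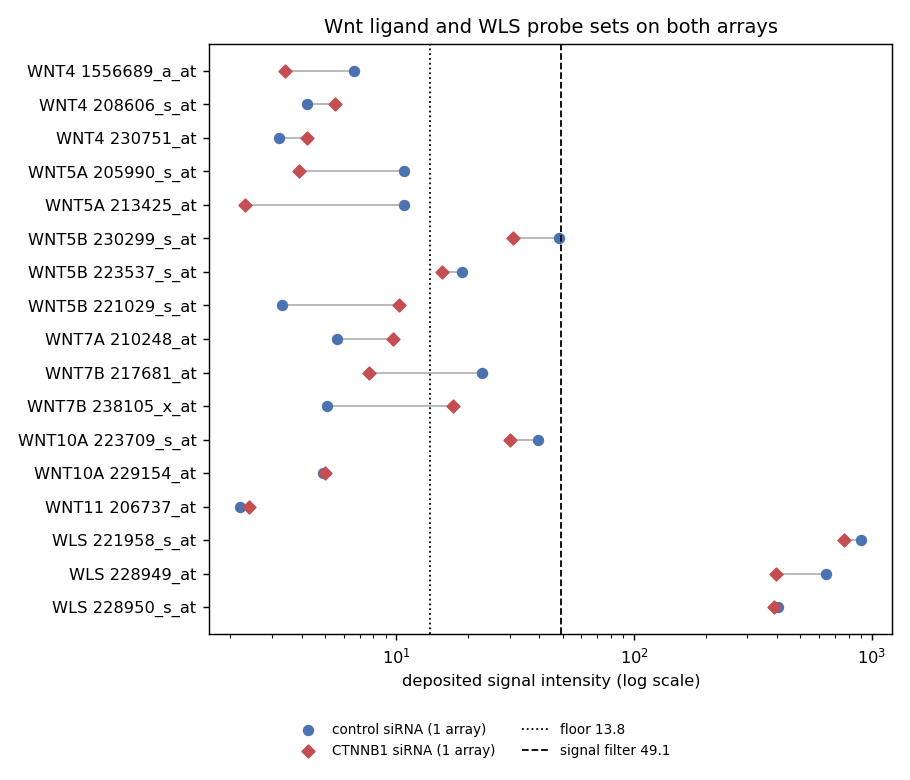
Deposited signal intensity (horizontal axis, log scale) of each of the 17 member probe sets, with the control siRNA array as a blue circle and the CTNNB1 siRNA array as a red diamond. The 14 Wnt ligand probe sets lie left of the signal filter at 49.1, and the 3 WLS probe sets lie right of it on both arrays.

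WNT5B, a ligand of the non-canonical branch, had the highest ligand reading among the members. Probe set 230299_s_at read 48.2 and 30.8, a log2 ratio of -0.65. Probe set 223537_s_at read 18.9 and 15.5, a log2 ratio of -0.29. The third (221029_s_at) read 3.3 and 10.3, both under the floor and in the opposite direction. WNT5B thus read lower in its pair of measurable probe sets, both under 2-fold and under the filter.

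WNT10A, a ligand with roles in skin and tooth development, read 39.5 and 30.2 in 223709_s_at, a log2 ratio of -0.39. Its other probe set (229154_at) read 4.9 and 5.0, under the floor on both arrays. WNT7B, a ligand of lung development, had readings on both sides of the floor. Probe set 217681_at read 22.9 on the control array and 7.7, under the floor, with CTNNB1 siRNA, at least 1.66-fold lower. Probe set 238105_x_at read 5.1, under the floor, and 17.3, at least 1.25-fold higher. The pair disagreed in direction, so WNT7B had no settled one.

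Of the 5 member ligand probe sets with a reading at or above the floor, 0 passed the 2-fold rule downward and 0 upward. With the floor, a probe set can pass only if its higher reading is at least 2-fold above the floor. That excluded 223537_s_at of WNT5B (18.9) and both WNT7B probe sets (22.9 and 17.3), whatever their other reading. Without the floor, the WNT7B log2 ratios were -1.57 (217681_at) and 1.76 (238105_x_at). The counts of 0 thus rest on the brightest probe sets of WNT5B and WNT10A. Dim probe sets often pass the 2-fold rule. Of the 17573 under the filter with a reading at or above the floor, 16.7% passed it downward and 9.43% upward. The pooled SD between such probe sets of the same gene was 0.85 in log2 ratio. The differences of WNT5B and WNT10A were smaller than that. For WNT7B only bounds are known, which were not set against it.

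WNT5A, the best-known non-canonical ligand, read 10.8 and 3.9 in 205990_s_at and 10.8 and 2.3 in 213425_at. Every WNT5A reading was under the floor, so no ratio was taken. WNT4, which acts in kidney and gonad development, read 6.6 and 3.4 (1556689_a_at), 4.2 and 5.5 (208606_s_at), and 3.2 and 4.2 (230751_at). Its 3 probe sets did not share a direction. WNT7A, known from limb and reproductive tract patterning, read 5.6 and 9.7 (210248_at), and WNT11, a ligand of cell movement in the embryo, read 2.2 and 2.4 (206737_at).

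In readings under the floor on both arrays a 2-fold gap is common. Of all 9951 such probe sets, the gap was downward with CTNNB1 siRNA for 20.9% and upward for 12%. Among the 9 member ligand probe sets of this kind, 2 had such a gap downward, both of WNT5A, and 1 upward, that of WNT5B. For genes with every probe set under the floor on both arrays, the pooled SD between probe sets of a gene was 1.10 in log2 ratio. That SD leaves out genes such as WNT5B, which also have a brighter probe set. Of the 284 genes whose probe sets, at least 2 of them, all lie under the floor on both arrays, 2.82% had every probe set at least 2-fold lower, and WNT5A was 1 of these 8. WNT5A was singled out after its readings were seen.

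The other Wnt ligand genes, which are not members, had 18 probe sets for 10 of 11 genes, with no single-symbol probe set for WNT3A. Of these 18, 4 entered. They were 71933_at of WNT6 (193 and 153), 221113_s_at of WNT16 (91.1 and 82.1), 236123_at of WNT2B (54.8 and 76.9) and 230643_at of WNT9A (52.4 and 65.3). Their log2 ratios were -0.33, -0.15, 0.49 and 0.32, and none reached 2-fold. For these non-members, 33.3% of probe sets were under the floor on both arrays.

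Under the filter, 3 of 8 non-member ligand probe sets with a reading at or above the floor passed the rule upward and 0 downward, beside 9.43% and 16.7% of all such probe sets. None of the 8 could pass it downward, since their highest control reading, 24.1 (206459_s_at of WNT2B), was less than 2-fold above the floor. The 3 were picked out after their values were seen. The WNT10B probe set (206213_at) read 9.9, under the floor, and 55.7, at least 4.04-fold higher. Probe set 238512_at of WNT2B read 4.0 and 33.4, at least 2.42-fold higher, and 221609_s_at of WNT6 read 8.8 and 33.3, at least 2.41-fold higher. The control reading was under the floor in each of them. All 4 WNT2B probe sets read higher with CTNNB1 siRNA, whereas the brightest WNT6 probe set read lower.

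**Figure D3:**
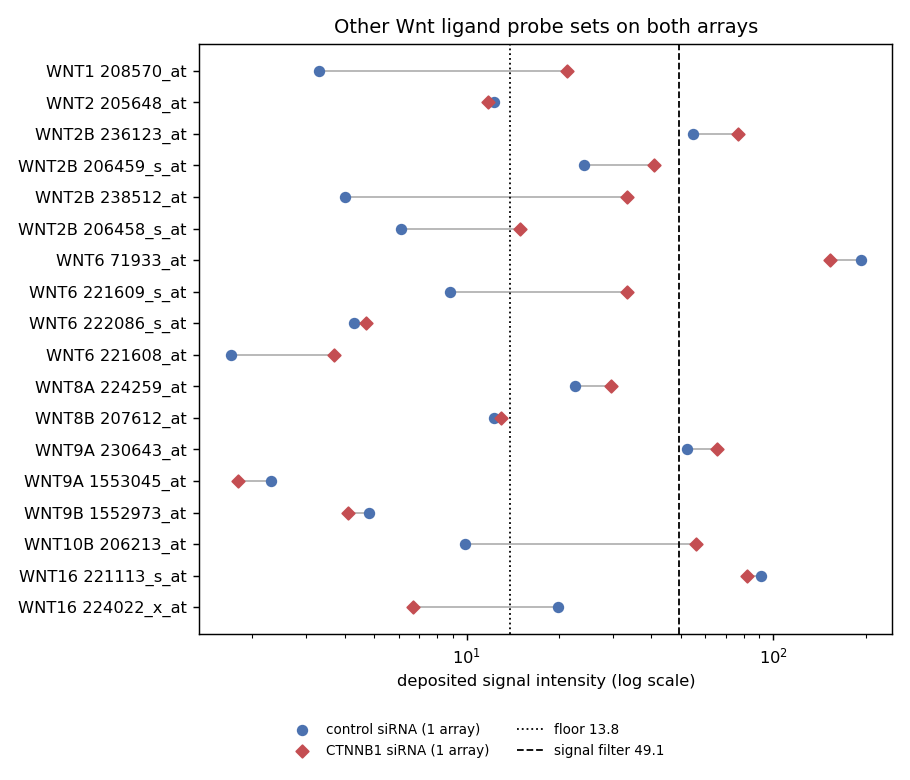
Deposited signal intensity (horizontal axis, log scale) of the 18 probe sets of Wnt ligand genes outside the member list, with the control siRNA array as a blue circle and the CTNNB1 siRNA array as a red diamond. The WNT6, WNT16, WNT2B and WNT9A probe sets right of the signal filter at 49.1 on both arrays lie close together, and WNT10B goes from 9.9 to 55.7.

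Genes of Wntless recycling and cargo transport were mostly well above the filter, with gene-level log2 ratios from -0.06 to 0.64. Those of Wnt lipid enzymes and carriers spread wider, from -1.28 to 0.98, and 3 of 6 carrier genes entered. Across the recycling, p24 cargo receptor, lipid and carrier lists, 17 of 21 genes entered, with 1 called lower, NOTUM, and 0 called higher, beside 2.38% and 2.29% of all entering genes. Their median log2 ratio was 0.22, beside 0.15 over all entering genes. These calls use the brightest probe set of each gene. Of 18 entering p24 probe sets, 1 was at least 2-fold lower and 3 higher. Of 6 lipid ones 1 was lower and 1 higher, and the recycling and carrier lists had none. Over all entering probe sets the shares were 2.42% lower and 3.48% higher.

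All 5 genes of the retromer and sorting nexin list entered, with none past 2-fold and a median log2 ratio of 0.22. VPS35, the core retromer subunit, read 2925 and 3773 in its gene-level probe set (217727_x_at), a log2 ratio of 0.37. VPS26A had 0.29 and VPS26B 0.22. SNX3, the sorting nexin that works with retromer on Wntless, had 0.17, and VPS29 had -0.06. The list's median was 0.00 after quantile normalization and after loess, so its sign was not settled. The median over all entering genes was then -0.03 and -0.02, beside 0.15 as deposited.

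Of the 7 genes of the p24 family, cargo receptors of the early secretory route, 6 entered and none was past 2-fold in its brightest probe set. TMED9 read 2514 and 3908, a log2 ratio of 0.64, TMED3 had 0.46 and TMED5 had 0.32. The TMED2 probe sets disagreed in size, with log2 ratios of 0.28 in the brightest and 1.01 and 1.21 in the others. TMED4 ran from -1.46 to 1.03 over its 5 entering probe sets. The list's median was 0.30 as deposited and 0.04 after loess, beside 0.15 and -0.02 over all entering genes.

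Among the lipid genes, NOTUM, which encodes a secreted enzyme that removes the fatty acid from Wnt proteins, read 296 and 122, 2.43-fold lower. SCD, the desaturase that makes the monounsaturated fatty acids used for this modification, read 4236 and 4300 in its brightest probe set and 51.2 and 118 in a dim one (211708_s_at). SCD5 had a log2 ratio of 0.69 from a dim 69.9. Among cell surface carriers, GPC1, a glypican that binds secreted signals, had -0.57 (884 and 594), although its second probe set read 101 and 101. GPC4 had -0.22, while its second probe set (204984_at), under the filter, read 54.9 and 7.7, at least 3.98-fold lower. Of all probe sets under the filter with a reading at or above the floor, 16.7% were at least 2-fold lower. The carrier genes GPC3, GPC6 and AFM did not enter. SDC1, a syndecan, read 196 and 386, a log2 ratio of 0.98 just under the rule, which it passed with scaling to a common median. Its second probe set (201286_at) had 0.41.

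**Figure D4:**
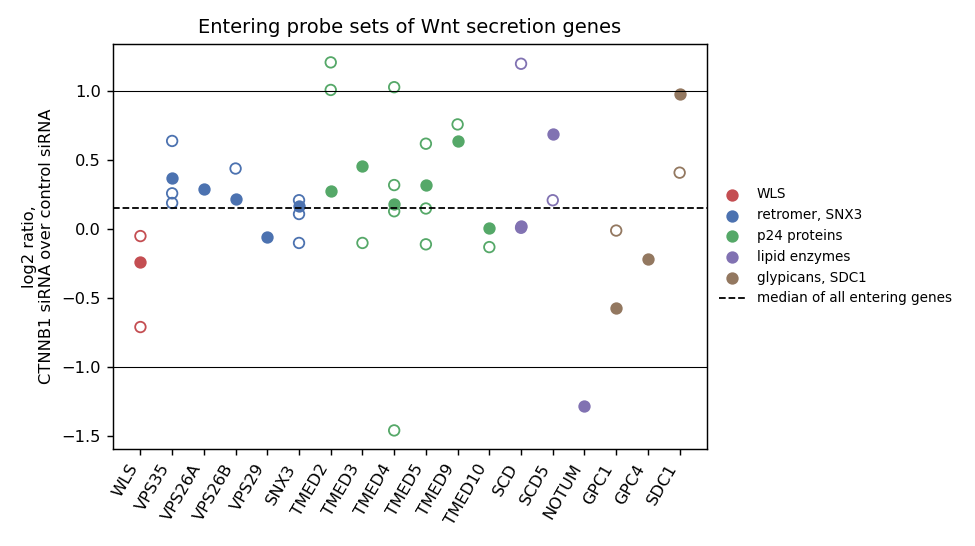
Log2 ratios (CTNNB1 siRNA over control siRNA, vertical axis) of the entering probe sets of WLS and of the genes of Wntless recycling, cargo transport, Wnt lipid enzymes and carriers, 1 column a gene, with the probe set of the highest mean signal filled. The WLS values, -0.05 to -0.71, all lie below the dashed median of all entering genes at 0.15, and NOTUM, at -1.28, is the filled point past the 2-fold lines.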

How the data were processed

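Signal intensities for 54675 probe sets on 2 arrays of total RNA, per the labels, were used as deposited. Per the submitters' processing notes, the authors made these intensities with MAS5. Its version, scaling target, detection calls and genome build were not given in the sources used. The array medians were 51.3 (control) and 46.7 (CTNNB1 siRNA). GEO's platform annotation gave the gene names: 41097 had 1 symbol, 1801 several and 11777 were not listed. Of the probe sets with 1 symbol, 41043 had an Entrez number found in RefSeq and took the RefSeq name, changed or not. Members were picked by the platform symbol.

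Log2 ratios were taken as CTNNB1 siRNA over control siRNA without further scaling, in Python 3.11.15 with numpy 2.4.6, pandas 2.3.3 and statsmodels 0.14.6. The entering probe set of highest mean signal represented a gene. Named genes were all members, CTNNB1, AXIN2, NKD1, genes of the cell type marker lists, and per pathway list each gene past 2-fold and up to 3 others of largest ratio. SNX3, VPS29, TMED2, TMED4, WNT16, WNT10B, GPC3, GPC6 and AFM lie outside that rule and were chosen after their values were seen. Members, lists and rules were chosen with earlier results of these data known. The calculations were tested on simulated arrays. Promoter windows came from RefSeq (GRCh38.p14). Alternatives covered scaling, floor, filter and the choice of probe set.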

Additional observations from a re-analysis of the deposited data

How the results depend on the processing

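None of 10 other settings gave a member gene or member probe set past 2-fold in either direction. WLS was the only member gene to enter in each of these, except with no filter. There the floor of 13.8 limited the ratios of dim ligand probe sets. The count therefore says little about the ligands. A further setting was chosen after seeing the data, with no filter and the floor at the 10th percentile (4.3). There 2 of 7 member genes were at least 2-fold lower, WNT5A (-1.33) and WNT7B (-1.57), and 0 higher. Of all genes, 10.1% were lower and 6.06% higher. The second WNT7B probe set (238105_x_at) read higher with CTNNB1 siRNA. In that setting 3 member probe sets were lower and 2 higher, beside 12.1% and 8.8% of all probe sets. The WLS ratio stayed below 0 in all 11 settings, from -0.71 to -0.11. Changes of floor and filter could not move it, since every WLS reading lies above them, and it was -0.24 in each. Both WLS and the median over entering member genes were -0.71 when the probe set of largest ratio stood for a gene. That median was -0.52 over 4 member genes with no filter. CTNNB1 had -0.97 with the median over its probe sets, under 2-fold. The member ligand readings split 7 lower to 7 higher after quantile normalization, loess and scaling to a common median, and 9 to 5 after centring on the median ratio. The non-member ligand readings were higher for 12 of 18 as deposited and for 10 to 14 over the scalings, and the 3 dim probe sets of WNT10B, WNT2B and WNT6 stayed past 2-fold in all 5. Over all genes, lower and higher calls were 298 and 287 as deposited, 448 and 163 after centring, 183 and 472 with scaling to a common median, 160 and 245 with the floor at the median, 1275 and 722 with no filter, 1936 and 1166 with no filter and the lower floor, 477 and 679 when the probe set of largest ratio was taken, and 34 and 139 when the filter lay at the 75th percentile. No paired analysis was possible because each group held 1 array, and for the same reason no replicate could be left out. Signal close to background limits what can be read for the ligands.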
